A study of Homo sapiens with 12 samples.

Results

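The genes described here are MYC and 39 genes of ribosome production and biosynthesis that are widely used as readouts of MYC, 40 in all: nucleolar and ribosomal RNA processing factors, plus polyamine, pyrimidine and coactivator genes. They were taken by symbol from a fixed list, which was chosen with earlier results of these data known. Of the 40 genes, 33 were matched to the array's annotation among 17687 named genes. BOP1, DKC1, GNL3, NOP56, ODC1, PPAN and WDR43 were not analysed here. Every matched gene was represented by 1 feature of the array.

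The arrays came from DLD1 and HCT 116, established human colorectal cancer cell lines, both transfected with siRNA: siControl as the control, or siBRG1, which targets BRG1. BRG1 is the product of SMARCA4, one of the alternative ATPases of the SWI/SNF chromatin remodelling complex. Total RNA of 3 samples per group was hybridised to single-colour Affymetrix arrays, giving 4 groups and 12 arrays. Neither the siRNA sequence nor how long cells were treated is given in the sources used here, and an effect of the siRNA itself cannot be told apart from an effect of losing BRG1. In 4 HCT 116 samples the number of the line or siRNA in the source name departs from the title, and the title was used. No label states whether replicates are separate cultures, so a p-value here reflects the spread among these samples alone, and that spread may be technical.

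MYC is a transcription factor that pairs with MAX and binds the E-box, the sequence CACGTG, near the start of many genes. Genes of ribosome production are among its best known targets: RNA polymerase I transcribes the ribosomal RNA precursor in the nucleolus, small nucleolar ribonucleoproteins (snoRNPs) guide its chemical modification, and assembly factors cut, fold and export the small and the large subunit. In the colon, Wnt signalling sustains MYC expression in dividing crypt cells, and most colorectal cancers keep that signal switched on.

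The promoters of these genes were searched for the E-box that MYC and MAX bind. Windows of 300 bases, 250 before and 50 after the gene start, were read from RefSeq on GRCh38.p14, and 28 of the 33 genes had one; MYC, NOP58, NOLC1, RRP12 and RRS1 did not. CACGTG reads the same on both strands, so 1 search covers both. It was present in any window of the gene for 13 of 28 genes (46.4%). The share was 10.8% of the 14250 array genes with a window and 8.77% of all 27305 genes with a window. Because the list was made of genes used as readouts of MYC, their higher share may follow from that choice and is not a result of these arrays. In 5 genes it lay before the start: it began at position -31 from the start of DDX21, -64 of LYAR, -15 of NAT10, -199 of SRM and -10 of UTP20. In 8 others it lay only after the start. The stretches around the 5 motifs before the start are printed because they show the element through which MYC is known to bind such genes, with DIMT1, whose results are given further on, as one whose window lacked it. Each runs 5′ to 3′ on the strand of the gene, with the E-box in capitals.
DDX21, chr10:68956589-68956646, plus strand: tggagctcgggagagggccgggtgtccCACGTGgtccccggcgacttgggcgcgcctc
LYAR, chr4:4290053-4290112, minus strand: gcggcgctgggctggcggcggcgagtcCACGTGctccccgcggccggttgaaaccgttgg
NAT10, chr11:34105587-34105628, plus strand: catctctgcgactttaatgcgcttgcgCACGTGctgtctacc
SRM, chr1:11060185-11060244, minus strand: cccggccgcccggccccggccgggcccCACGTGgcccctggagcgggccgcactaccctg
UTP20, chr12:101280068-101280104, plus strand: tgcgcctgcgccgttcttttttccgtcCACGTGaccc
DIMT1, chr5:62403906-62403965, minus strand: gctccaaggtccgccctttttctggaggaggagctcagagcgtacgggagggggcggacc

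SMARCA4 was lower on all siBRG1 arrays. In DLD1 it fell by 3.80 on the log2 scale (siControl 10.31, 9.95 and 10.29; siBRG1 6.29, 6.55 and 6.31; limma adjusted p = 4.56e-07). In HCT 116 it fell by 3.22 (siControl 10.12, 10.15 and 9.59; siBRG1 6.78, 6.39 and 7.03; limma adjusted p = 1.14e-06). Array medians lay between 6.36 and 6.50, and arrays of the same group correlated at 0.989 to 0.995 across genes. Of the intestinal epithelial markers measured, 7 of 10 had a mean over the 12 arrays above the median of all genes, EPCAM, KRT8, KRT18 and KRT19 included. CDX1, VIL1 and LGALS4 did not, and CDH17 did so through DLD1, with siControl means of 12.65 in DLD1 and 3.93 in HCT 116. Of the other markers, 1 of 5 for fibroblasts, 0 of 4 for immune cells and 0 of 4 for endothelial cells had a mean above that median. Of the immune markers CD68, also found in lysosomes of other cells, rose by 1.29 in HCT 116 (limma adjusted p = 0.0036), and its part in the results was not tested.

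Few of the 33 genes passed the test after siBRG1. In DLD1, 0 of 33 passed the test, in HCT 116 DIMT1 alone passed it and was higher, and over both lines together NOLC1 alone passed it and was lower. With the replicate number as a block, the count over both lines was 4 (NOLC1, DIMT1, CAD and PPRC1), and in DLD1 it stayed at 0. The smallest limma adjusted p of the set in DLD1 was 0.19 without the block and 0.063 with it, the latter for PPRC1. A gene was called where limma's moderated test gave an adjusted p under 0.05 after Benjamini-Hochberg adjustment over all 17687 genes. Changes are siBRG1 minus siControl in log2 units of the deposited values, with a standard error (SE) or a 95% interval (CI). Unless stated, these and the adjusted p are from the fit without the replicate block, which ignores the pairing of the samples in DLD1. Because each gene's probes have their own brightness, levels are compared between arrays of 1 gene and not between genes. In bulk RNA, fewer cells expressing a gene and less RNA per cell cannot be told apart, and the authors' normalisation removes any change shared by all genes.

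Among all genes, 0.198% were called in DLD1 in either direction. In HCT 116, 2.82% were called higher and 4.13% lower, a split of 499 to 731 that became 645 to 559 with median centring of the arrays. The 33 genes held 0 calls in DLD1, and 1 higher and 0 lower in HCT 116. At these background shares, counts of 0 and 1 among 33 genes say little about the set in either direction. The 95% interval lay entirely within 1 log2 unit of 0 for 27 of 33 genes in DLD1 and for 28 of 33 in HCT 116. The same share over all genes was not counted, so this describes the single genes and not the set. Without adjustment, 9 of 33 in DLD1 and 4 of 33 in HCT 116 had p under 0.05, against 10.5% and 20.4% of all genes.

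The medians of the 2 lines lay on opposite sides of 0. In DLD1 the median change of the 33 genes was -0.06, against 0.01 for all genes, with 14 of 33 above 0 and a range from -0.77 for PPRC1 to 0.43 for CAD. In HCT 116 it was 0.13, against -0.01 for all genes, with 20 of 33 above 0 and a range from -0.33 for NHP2 to 0.82 for DIMT1; it was 0.04 without HCT 116 siControl replicate 1. The pooled SD of the arrays' own medians over the 33 genes was 0.162, a spread that includes shifts shared by arrays of 1 replicate number. Within the 3 DLD1 pairs of the same number the median was below 0 each time. Leaving out 1 array, which breaks a pair, gave a DLD1 median of 0.06 without DLD1 siControl replicate 3 and 0.03 without DLD1 siBRG1 replicate 2. It was -0.16 without DLD1 siControl replicate 2 and -0.17 without DLD1 siBRG1 replicate 3.

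**Figure D1:**
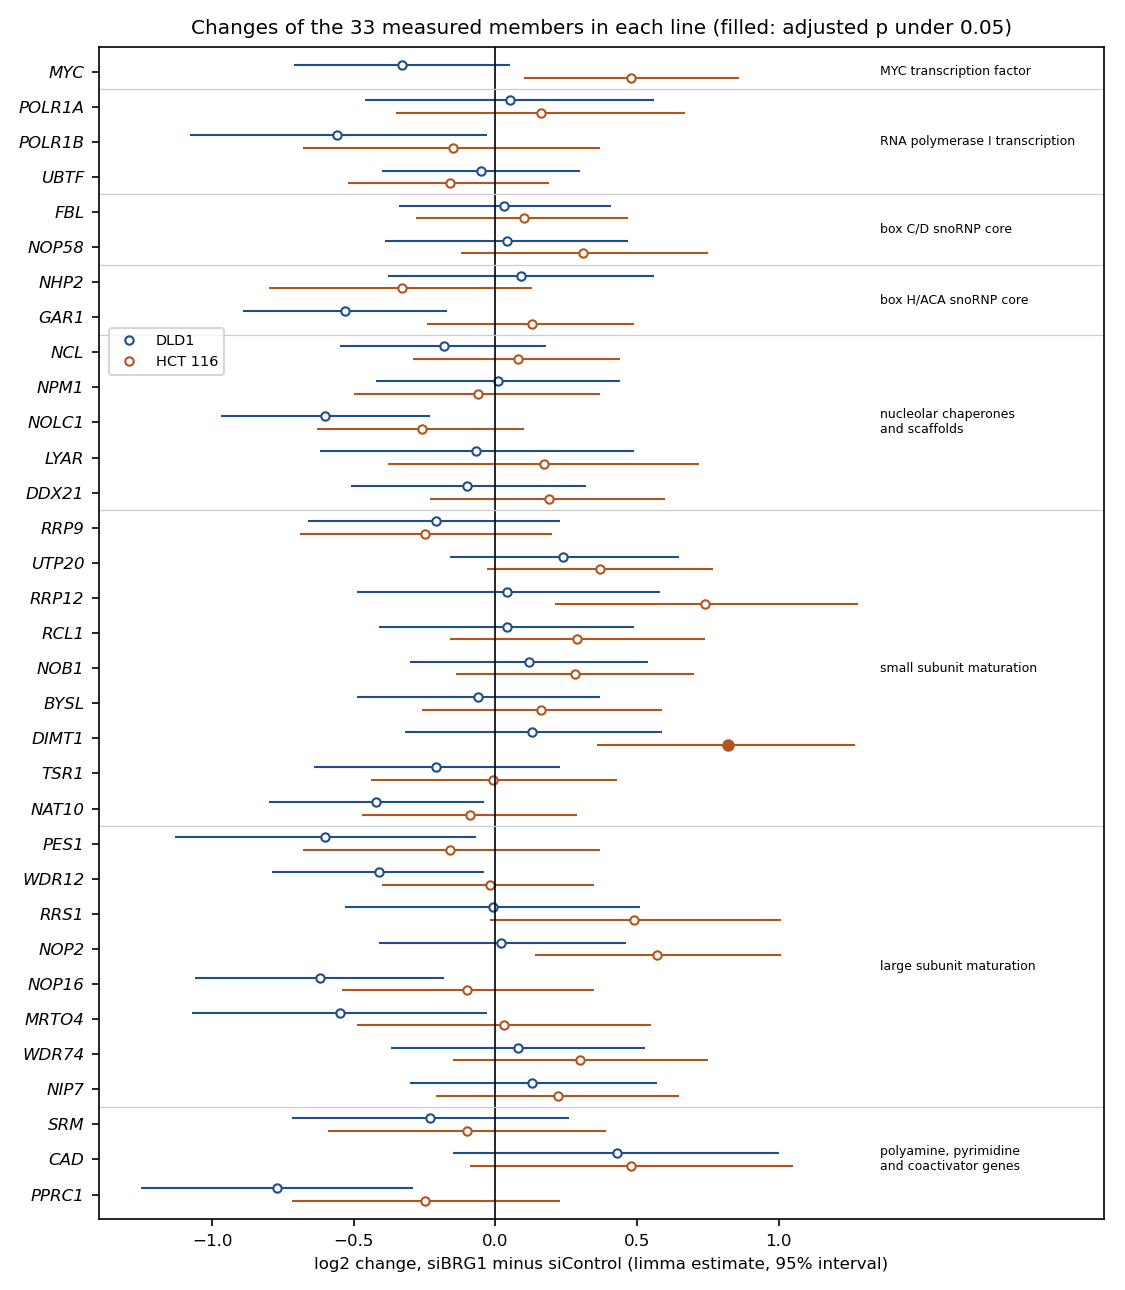
Log2 change of each of the 33 genes after siBRG1, with limma's 95% interval, in DLD1 (blue) and HCT 116 (orange), ordered by role; filled points passed the test. DIMT1 in HCT 116, at 0.82, is the single filled point, and the points of MYC lie on opposite sides of 0.

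MYC itself (Entrez gene 4609) did not pass the test in either line. In DLD1 its level was 14.10, 13.80 and 13.68 with siControl, and 13.70, 13.41 and 13.45 with siBRG1. The siBRG1 arrays were the lower group on average, but the groups overlapped, since 1 siBRG1 array stood above the lowest control. The change was -0.33 (SE 0.18, CI -0.71 to 0.05, limma adjusted p = 0.564). In HCT 116 the levels were 14.77, 14.98 and 14.96 with siControl, and 15.20, 15.46 and 15.49 with siBRG1. All 3 siBRG1 arrays stood above all 3 controls. The change was 0.48 (SE 0.18, CI 0.10 to 0.86), a 1.39-fold higher level, and it did not pass the test (limma adjusted p = 0.128). With a trended and robust variance prior the adjusted p was 0.0433.

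The gap between the lines in the MYC change was 0.81 (SE 0.25, CI 0.28 to 1.35), the largest of the 33 genes. Its unadjusted p was 0.00567 and its limma adjusted p was 0.256, so it did not pass the test among 17687 genes. In DLD1, where replicate numbers pair the samples, MYC differed by -0.39, -0.38 and -0.23 in the 3 pairs. In HCT 116, where a pairing is unclear, MYC differed by 0.43, 0.48 and 0.52 between arrays of the same number. Averaged over both lines the MYC change was 0.07 (limma adjusted p = 0.819). An effect on MYC of either sign common to both lines was therefore not detected, with an interval from -0.20 to 0.34.

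**Figure D2:**
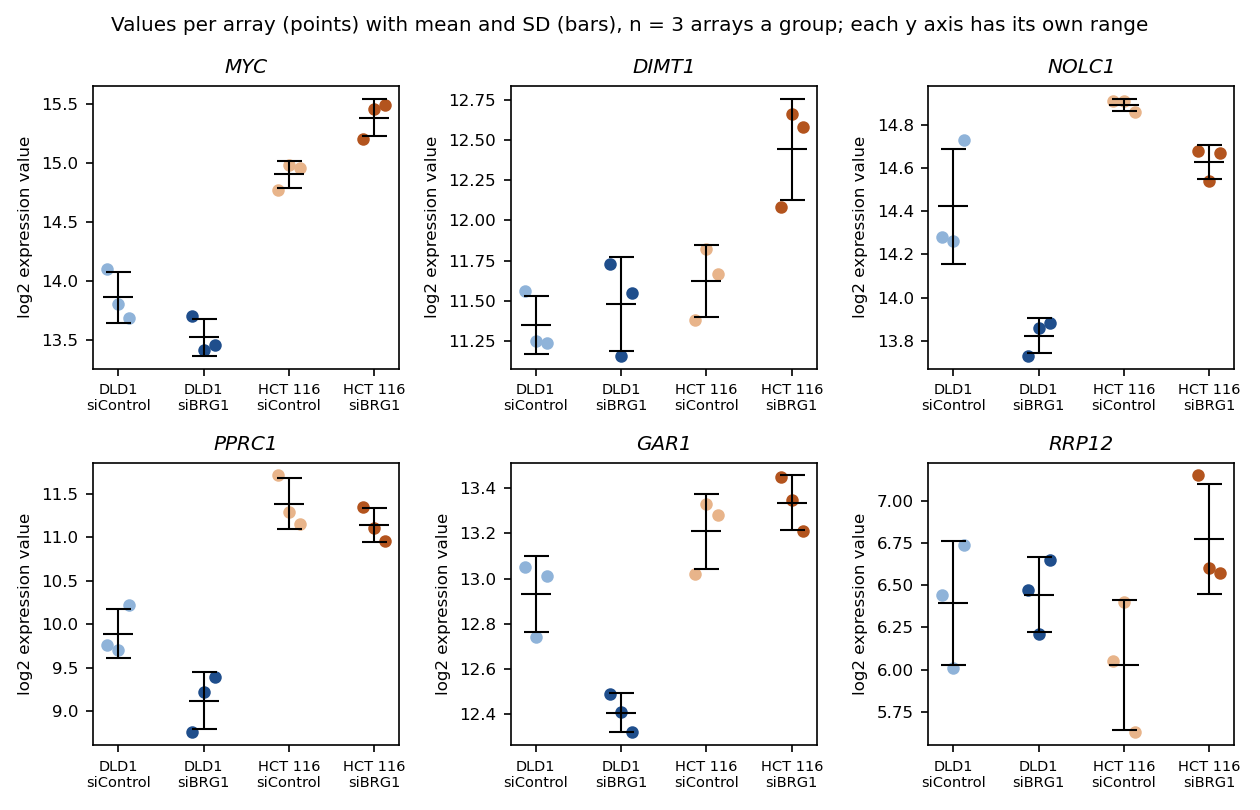
Deposited log2 level of MYC, DIMT1, NOLC1, PPRC1, GAR1 and RRP12 on each of the 12 arrays, by line and siRNA, with the mean and SD of each group of 3 and a separate axis range per gene. MYC and DIMT1 with siBRG1 lie above the controls in HCT 116, and NOLC1, PPRC1 and GAR1 lie below the controls in DLD1.

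Of the 3 RNA polymerase I genes, POLR1A encodes the largest subunit of the enzyme, POLR1B the next largest, and UBTF the factor that keeps ribosomal DNA open for transcription. None passed the test in either line. POLR1B in DLD1 read 8.35, 8.82 and 9.34 with siControl and 7.94, 8.38 and 8.50 with siBRG1, an overlap between the groups. Its change was -0.56 (SE 0.25, limma adjusted p = 0.44), and in HCT 116 it was -0.15. In DLD1 each siBRG1 array lay below the control of the same number, and with the replicate block the SE was 0.17 (limma adjusted p = 0.146). UBTF in HCT 116 read 11.91, 12.01 and 11.99 with siControl and 11.86, 11.87 and 11.69 with siBRG1. These 2 groups did not overlap, but the change was small, at -0.16 (SE 0.16, limma adjusted p = 0.655). For POLR1A the change was 0.05 in DLD1 and 0.16 in HCT 116, within its spread in both.

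The measured box C/D snoRNP genes were FBL, the methyltransferase that methylates ribosomal RNA on its ribose, and NOP58, a core protein of the same particle. Their changes were 0.03 and 0.04 in DLD1, and 0.10 and 0.31 in HCT 116, and none passed the test. NOP58 in HCT 116 read 14.22, 14.51 and 14.52 with siControl and 14.35, 14.90 and 14.94 with siBRG1, with overlapping groups. In DLD1 the small change of NOP58 turned to -0.02 after median centring of the arrays, and to -0.09 without DLD1 siBRG1 replicate 3.

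The measured box H/ACA genes, GAR1 and NHP2, encode core proteins of the particles that convert uridine to pseudouridine in ribosomal RNA. GAR1 in DLD1 read 13.05, 12.74 and 13.01 with siControl and 12.49, 12.41 and 12.32 with siBRG1. Every siBRG1 array lay below every control, and the change was -0.53 (SE 0.17, limma adjusted p = 0.24). In HCT 116 the GAR1 groups overlapped, at 13.02, 13.33 and 13.28 with siControl and 13.45, 13.35 and 13.21 with siBRG1, a change of 0.13. Its difference between the lines was 0.65 (limma adjusted p = 0.376). NHP2 in HCT 116 read 11.60, 11.54 and 11.54 with siControl and 11.19, 11.35 and 11.12 with siBRG1, without overlap. Its change there was -0.33 (SE 0.22, limma adjusted p = 0.445), against 0.09 in DLD1.

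NOLC1, a phosphoprotein that chaperones snoRNPs in the nucleolus and in Cajal bodies, was lower on every siBRG1 array of both lines than on any control of the same line, and it was the sole gene of the set called on the average of the lines. In DLD1 it read 14.28, 14.26 and 14.73 with siControl and 13.73, 13.86 and 13.88 with siBRG1. In HCT 116 it read 14.91, 14.91 and 14.86 with siControl and 14.68, 14.54 and 14.67 with siBRG1. The siBRG1 arrays were the low ones in each line. NOLC1 fell by 0.43 on average (SE 0.12, limma adjusted p = 0.0396), a 1.35-fold lower level, where 4.68% of all genes were called lower and 4.01% higher. Its changes by line were -0.60 in DLD1 (limma adjusted p = 0.19) and -0.26 in HCT 116 (limma adjusted p = 0.442). The average call was close to the threshold: of the 12 fits that left out 1 array it was lost in 10, all but those without DLD1 siControl replicate 1 or 2. The adjusted p ran from 0.00722 to 0.102 over all alternatives, and was 0.0533 with median centring.

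None of the other nucleolar chaperones and scaffolds passed the test. For NCL (nucleolin, which binds ribosomal RNA precursors) the change was -0.18 in DLD1 and 0.08 in HCT 116. For NPM1 (nucleophosmin, which organises the outer nucleolus) it was 0.01 and -0.06, at levels of 15.73 to 16.23 near the top of the array's scale. DDX21, an RNA helicase of the nucleolus, had changes of -0.10 and 0.19, the latter without overlap between the HCT 116 groups. LYAR, a nucleolar regulator of precursor processing, had changes of -0.07 and 0.17.

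DIMT1, the enzyme that dimethylates a pair of adenosines near the end of small subunit ribosomal RNA, was the one gene of the set called within a line. In HCT 116 it read 11.38, 11.82 and 11.67 with siControl and 12.08, 12.66 and 12.58 with siBRG1. Every siBRG1 array stood above every control. DIMT1 rose by 0.82 (SE 0.21, CI 0.36 to 1.27, limma adjusted p = 0.0318), a 1.76-fold higher level. In DLD1 it read 11.56, 11.25 and 11.24 with siControl and 11.73, 11.16 and 11.55 with siBRG1, with overlapping groups and a change of 0.13. The difference between the lines was 0.69 (CI 0.04 to 1.33, limma adjusted p = 0.509), so DIMT1 was not shown to respond differently in them. Its average over the lines, 0.47, had a limma adjusted p of 0.0671, and of 0.0173 with the replicate block. That block spans both lines, while the numbers pair the samples in DLD1 and a pairing in HCT 116 is unclear.

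The DIMT1 call depended on single arrays. Its adjusted p rose to 0.0927, 0.0552 and 0.0765 without HCT 116 siControl replicates 1, 2 and 3, and to 0.125 and 0.12 without HCT 116 siBRG1 replicates 2 and 3. The change itself stayed between 0.70 and 0.92 in those 5 fits. With HCT 116 fitted alone, the adjusted p was 0.0645.

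Of the 9 small subunit genes measured, 6 had a change above 0 in HCT 116, with no further call. RRP12, which accompanies the precursors out of the nucleus, read 6.05, 6.40 and 5.63 with siControl and 7.15, 6.60 and 6.57 with siBRG1 in HCT 116. These groups did not overlap, and the change was 0.74 (SE 0.25, limma adjusted p = 0.0914), but the levels lay around the array medians, where signal and background are hard to separate. The HCT 116 change was 0.37 for UTP20, a scaffold protein of the small subunit processome, 0.29 for RCL1, a cleavage factor, and 0.28 for NOB1, the nuclease that trims the last precursor. NOB1 and RCL1 did not overlap between the HCT 116 groups. It was 0.16 for BYSL, which acts in late maturation, -0.01 for TSR1, a late assembly factor, and -0.25 for RRP9, a protein of the snoRNP that directs early cleavage.

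In DLD1 the largest small subunit change was that of NAT10. NAT10, an acetyltransferase that modifies cytidines in ribosomal RNA, read 11.94, 11.63 and 12.25 with siControl and 11.53, 11.47 and 11.56 with siBRG1. All siBRG1 arrays were the lower ones, and the change was -0.42 (SE 0.18, limma adjusted p = 0.409). The remaining small subunit changes in DLD1 ran from -0.21 for RRP9 and TSR1 to 0.24 for UTP20.

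None of the 8 large subunit factors measured passed the test in either line. NOP16, an assembly factor of early large subunit particles, read 12.48, 12.25 and 12.84 with siControl and 12.03, 11.76 and 11.91 with siBRG1 in DLD1. The groups did not overlap, and the change was -0.62 (SE 0.21, limma adjusted p = 0.264), against -0.10 in HCT 116. PES1 and WDR12, which form a complex with BOP1, had changes of -0.60 and -0.41 in DLD1, and of -0.16 and -0.02 in HCT 116. MRTO4, which holds the place of the stalk protein on the forming subunit, had changes of -0.55 in DLD1 and 0.03 in HCT 116.

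NOP2, which methylates a cytosine of large subunit ribosomal RNA, had a change of 0.02 in DLD1, and all its siBRG1 arrays stood above the controls in HCT 116. It read 9.21, 9.42 and 9.35 with siControl and 9.84, 9.85 and 10.00 with siBRG1 in HCT 116, a change of 0.57 (SE 0.20, limma adjusted p = 0.113). RRS1, which helps load the smallest ribosomal RNA onto the subunit, had changes of -0.01 in DLD1 and 0.49 in HCT 116. For WDR74 they were 0.08 and 0.30, and for NIP7, a factor of precursor processing, 0.13 and 0.22. All 8 large subunit genes had a higher change in HCT 116 than in DLD1, with a median difference of 0.47, and 0 of 8 differences passed the test. Over all genes, 8151 of 17687 had a higher change in HCT 116.

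Of the biosynthesis and coactivator genes, PPRC1 had the lowest change of the set in DLD1. PPRC1 encodes a coactivator related to PGC-1 that responds to growth signals. In DLD1 it read 9.76, 9.70 and 10.22 with siControl and 8.76, 9.22 and 9.39 with siBRG1, without overlap. The change was -0.77 (SE 0.22, CI -1.25 to -0.29, limma adjusted p = 0.197), and in HCT 116 it was -0.25 with overlapping groups. Its average over the lines, -0.51, did not pass the test (limma adjusted p = 0.0616), but with the replicate number as a block it did (limma adjusted p = 0.0158). CAD, the enzyme of the first steps of pyrimidine synthesis, had changes above 0. It read 9.61, 9.72 and 9.50 with siControl and 10.12, 9.79 and 10.18 with siBRG1 in DLD1, a change of 0.43 (SE 0.27, limma adjusted p = 0.659), and 0.48 in HCT 116. Its average, 0.45, had a limma adjusted p of 0.171, and of 0.0482 with the replicate block. SRM, spermidine synthase, had changes of -0.23 and -0.10.

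In DLD1, 6 of 33 genes had all siBRG1 arrays below all controls (GAR1, NOLC1, NAT10, WDR12, NOP16 and PPRC1) and 1 had them all above (CAD). Among all genes these shares were 7.19% below and 8.33% above. In HCT 116, 3 of 33 lay below (UBTF, NHP2 and NOLC1) and 8 above (MYC, DDX21, RRP12, RCL1, NOB1, DIMT1, NOP2 and WDR74). The shares over all genes there were 13% below and 11.9% above.

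**Figure D3:**
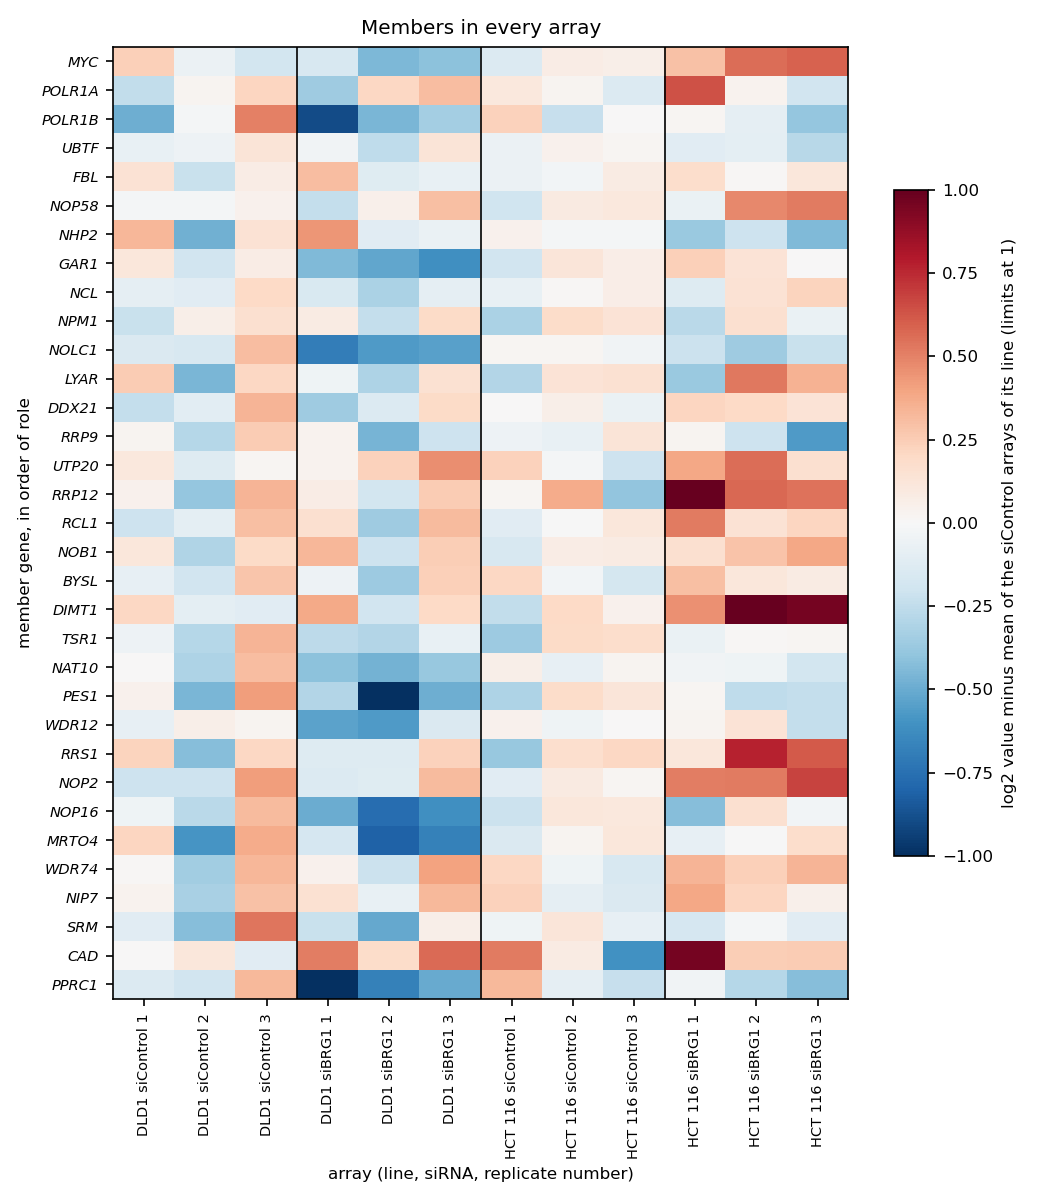
Heat map of the 33 genes (rows, by role) on the 12 arrays (columns), coloured by each array's log2 level minus the siControl mean of the gene in the same line, with colours limited at 1 unit either way. NOLC1 and PPRC1 are lower on the siBRG1 arrays of DLD1, and whole arrays also shift together, as in DLD1 replicate 2, where the median deviation was -0.19 with siControl and -0.29 with siBRG1.

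Whole arrays also differed across the set. In DLD1 the median deviation of the 33 genes from their siControl means was 0.00, -0.19 and 0.25 on siControl arrays 1, 2 and 3, and -0.13, -0.29 and 0.13 on siBRG1 arrays 1, 2 and 3. Within each replicate number the median difference, siBRG1 minus siControl, was below 0, at -0.11, -0.09 and -0.15. In HCT 116 the deviations were smaller, from -0.06 to 0.14. The median difference between HCT 116 arrays of the same number was 0.13, 0.14 and 0.06. The part of these array-wide shifts in single genes' changes was not tested.

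The change in HCT 116 exceeded that in DLD1 for 29 of 33 genes, and for 8151 of all 17687 genes. The median difference was 0.26, against -0.03 for all genes. None of these differences was called, where 0.334% of all genes were, and 3 of 33 had an unadjusted p under 0.05, near the 8.99% of all genes that had one. UBTF, NHP2, NPM1 and RRP9 were the 4 genes with the opposite sign. Because the differences share arrays, the 29 of 33 are not independent counts. With median centring of the arrays it was 0.39 for these genes and 0.10 for all genes.

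The changes in both lines shared a sign for 23 genes: 11 of 33 were below 0 in both and 12 above 0 in both. Over all genes 30.3% were below 0 in both and 30.5% above 0 in both. Another 8 genes were above 0 in HCT 116 and below 0 in DLD1, MYC among them, and 2 had the reverse, against 17.6% and 21.5% of all genes. Across the 33 genes the changes in the lines correlated at Pearson r = 0.59 and Spearman rho = 0.62, against 0.40 and 0.35 over all genes, as a description: genes share arrays and are not independent replicates.

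More of these genes were called between the control arms of the lines than after siBRG1. Comparing HCT 116 siControl with DLD1 siControl, 8 of 33 were higher in HCT 116 and 0 lower, where 13.6% of all genes were called higher and 14% lower. The median difference was 0.35, against 0.03 for all genes, with 30 of 33 above 0, against 9370 of all 17687 genes. In 13 of 33 genes all HCT 116 controls stood above all DLD1 controls, and in 0 of 33 below. Over all genes these shares were 20.3% and 19.7%.

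**Figure D4:**
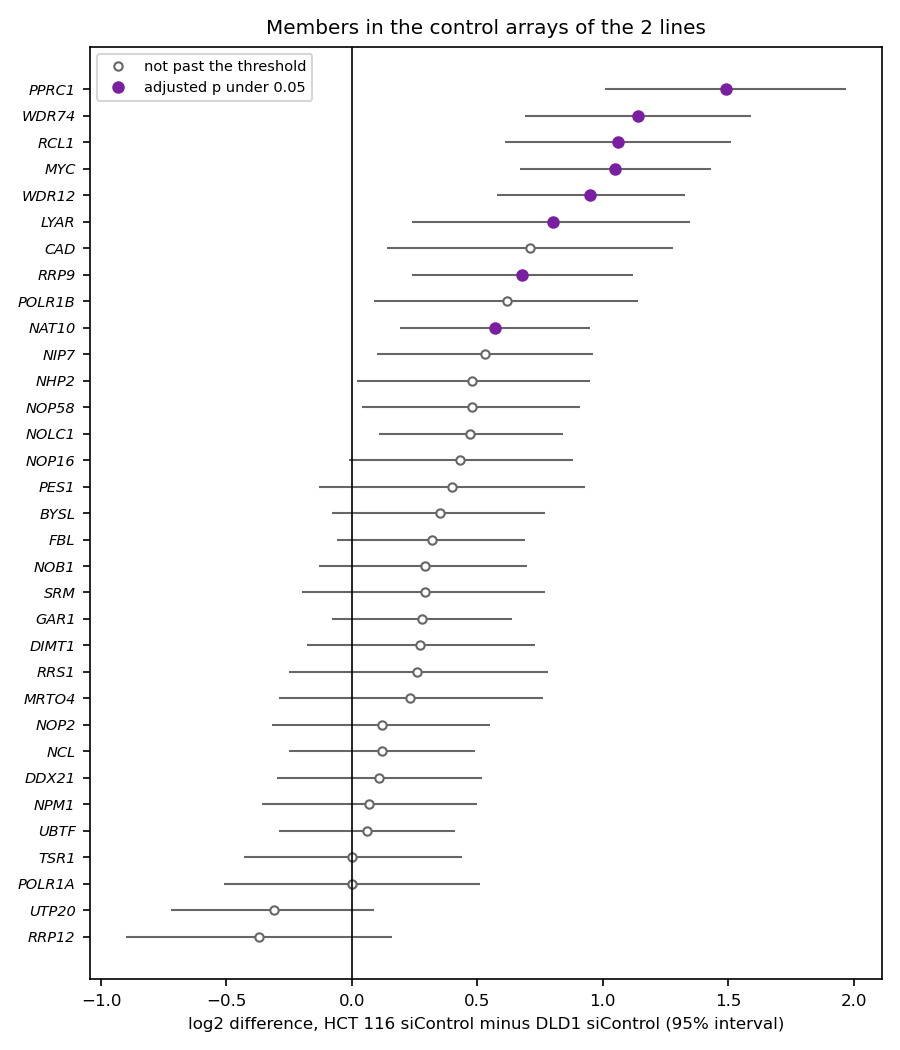
Log2 difference between HCT 116 siControl and DLD1 siControl for each of the 33 genes, with limma's 95% interval; filled points passed the test. The 8 filled points run from NAT10 at 0.57 to PPRC1 at 1.49, and UTP20 and RRP12 are the genes furthest below 0.

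PPRC1 showed the largest difference between the lines, 1.49 (SE 0.22, 2.81-fold, limma adjusted p = 0.000107). Its HCT 116 controls read 11.71, 11.29 and 11.15, and its DLD1 controls 9.76, 9.70 and 10.22. MYC was higher in HCT 116 by 1.05 (SE 0.18, 2.07-fold, limma adjusted p = 0.00033), and the siBRG1 arrays of each line stayed on their own line's side of that gap. WDR74, a factor of early large subunit particles, read 13.04, 12.79 and 12.67 in HCT 116 and 11.71, 11.35 and 12.03 in DLD1, a difference of 1.14 (limma adjusted p = 0.00071).

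RCL1 read 10.14, 10.25 and 10.37 in HCT 116 and 8.99, 9.10 and 9.50 in DLD1, a difference of 1.06 (limma adjusted p = 0.0012). WDR12 read 11.77, 11.69 and 11.73 in HCT 116 and 10.69, 10.83 and 10.80 in DLD1, a difference of 0.95 (limma adjusted p = 0.00066). LYAR read 12.10, 12.53 and 12.54 in HCT 116 and 11.85, 11.14 and 11.80 in DLD1. For RRP9 the values were 9.17, 9.15 and 9.35 against 8.57, 8.26 and 8.80, and for NAT10 12.57, 12.43 and 12.54 against 11.94, 11.63 and 12.25. All 3 genes were without overlap, and LYAR, RRP9 and NAT10 were higher by 0.80, 0.68 and 0.57, with limma adjusted p of 0.0316, 0.0228 and 0.0252. Those 3 calls were the least firm: without DLD1 siControl replicate 2 the adjusted p values were 0.152, 0.105 and 0.127, and 5 calls were left. LYAR also missed the threshold without HCT 116 siControl replicate 2 (0.0994) or 3 (0.0978). RRP9 missed it without DLD1 siControl replicate 1 (0.0516) or HCT 116 siControl replicate 3 (0.0779). NAT10 missed it without DLD1 siControl replicate 1 (0.0618), HCT 116 siControl replicate 1 (0.0636) or 3 (0.0661), and with the control arrays fitted alone (0.0663).

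At the other end, POLR1A and TSR1 were at 0.00 between the control arms, UTP20 at -0.31 and RRP12 at -0.37. With both siRNAs pooled, 8 of 33 genes had every HCT 116 array above every DLD1 array, as did 10.5% of all genes: MYC, LYAR, RCL1, NAT10, WDR12, WDR74, NIP7 and PPRC1.

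Genes with and without an E-box in the promoter window had overlapping changes after siBRG1. In DLD1 the median change was -0.10 over the 13 genes with the motif and 0.01 over the 15 without it, and the range was -0.60 to 0.24 against -0.77 to 0.43. In HCT 116 the medians were 0.13 and -0.01, and the ranges -0.25 to 0.57 and -0.33 to 0.82. Of the genes higher in HCT 116 siControl, 4 of 7 with a window held the motif, and of the others 9 of 21. A match describes letters in the window and not binding.

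The wider pathway was described with 8 further lists. For comparison, 6.95% of all genes were called in HCT 116 and 0.198% in DLD1. Of the 17687 changes, 8510 were above 0 in HCT 116 and 9207 in DLD1. The MYC network list (partners, antagonists and regulators of MYC) had 14 of 16 genes measured, with 0 calls in DLD1 and 1 in HCT 116. FBXW7, the substrate receptor of a ubiquitin ligase that marks MYC for degradation, read 8.75, 8.89 and 8.59 with siControl and 10.00, 10.11 and 9.97 with siBRG1 in HCT 116. All siBRG1 arrays stood more than 1 unit above the controls, and FBXW7 rose by 1.28 (SE 0.25, 2.43-fold, limma adjusted p = 0.00638), a call that held in all 12 fits that left out 1 array. In DLD1 its change was -0.28, and the difference between the lines was 1.57 (SE 0.35, limma adjusted p = 0.0851), which did not pass the test. MAX, the partner of MYC, was not called in either line.

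Among other RNA polymerase I genes, 0 of 12 measured were called in either line, with median changes of -0.07 in DLD1 and 0.15 in HCT 116. Other snoRNP genes had 1 call of 11 in HCT 116, ZNHIT6, an assembly factor of box C/D particles. It read 10.51, 10.92 and 10.92 with siControl and 11.57, 11.94 and 11.84 with siBRG1, and rose by 1.0 (limma adjusted p = 0.0145). The median of that list was -0.20. The ZNHIT6 call was lost without HCT 116 siBRG1 replicate 2 (limma adjusted p = 0.061) or 3 (0.0561).

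Other small subunit factors had 3 of 48 called higher and 1 lower in HCT 116, with 36 of 48 changes above 0 and a median of 0.19. The share called was 8.33%, near the 6.95% of all genes. KRR1, a protein of the small subunit processome, rose by 1.01 (limma adjusted p = 0.0136), from 13.26, 13.58 and 13.81 to 14.15, 14.76 and 14.79. UTP15, of the same processome, rose by 0.83 (limma adjusted p = 0.015). EMG1, a methyltransferase of small subunit ribosomal RNA named after its value was seen, rose by 0.63 (limma adjusted p = 0.0268). TSR2, a chaperone that delivers a ribosomal protein, fell by 0.84 (limma adjusted p = 0.0201), from 11.29, 11.27 and 11.23 to 10.73, 10.53 and 10.01. In DLD1 the change of TSR2 was about as large, -0.86, without passing the test there (limma adjusted p = 0.108), and 0 of 48 were called. The KRR1 call was lost without HCT 116 siBRG1 replicate 2 (0.0602) or 3 (0.0665), and the UTP15 call without siBRG1 replicate 2 (0.0695). TSR2 missed the threshold without HCT 116 siControl replicate 2 (0.0684) or 3 (0.0583), without siBRG1 replicate 3 (0.0969) and with the line fitted alone (0.0568).

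Other large subunit factors had 3 of 47 called higher and 0 lower in HCT 116, with a median of 0.17. The share called was 6.38%, near the 6.95% of all genes. URB1 rose by 0.94, SBDS, which helps release the factor that keeps subunits apart, by 0.92, and PAK1IP1 by 0.73, with limma adjusted p of 0.0346, 0.0345 and 0.017. In DLD1 0 of 47 were called, with a median of 0.01. The URB1 call was lost without any 1 of the HCT 116 arrays other than siBRG1 replicate 3, with adjusted p from 0.0696 to 0.119. SBDS missed the threshold without siControl replicate 1 (0.111) or 3 (0.066), or siBRG1 replicate 2 (0.13) or 3 (0.121), and fitted alone (0.0711). PAK1IP1 missed it without siControl replicate 2 (0.054) or 3 (0.0698), or siBRG1 replicate 2 (0.0618) or 3 (0.0751), and fitted alone (0.0507).

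DIS3 was the one pathway gene called in both lines. It encodes a catalytic nuclease of the RNA exosome, which trims ribosomal RNA precursors. In DLD1 it read 12.98, 12.75 and 13.04 with siControl and 11.78, 11.73 and 11.28 with siBRG1, and fell by 1.33 (SE 0.19, 2.51-fold, limma adjusted p = 0.00765). In HCT 116 it read 12.67, 12.98 and 12.98 with siControl and 12.27, 11.96 and 12.08 with siBRG1, and fell by 0.77 (SE 0.19, limma adjusted p = 0.0235). The groups were well apart in both lines, and over both it fell by 1.05 (limma adjusted p = 0.000531). The DLD1 call was lost without siControl replicate 1 (0.0501) or 3 (0.0746), without siBRG1 replicate 3 (0.0689), and with DLD1 fitted alone (0.0989). The HCT 116 call was lost without siControl replicate 2 (0.0951) or 3 (0.0866), or siBRG1 replicate 2 (0.0939) or 3 (0.0768). The other 23 genes of the exosome and RNase MRP list had no call in either line.

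Other polyamine and pyrimidine genes had calls in both directions in HCT 116, with 1 of 14 called higher and 2 lower, and 0 of 14 in DLD1. SMOX, which oxidises spermine, rose by 1.29 (limma adjusted p = 0.0175), from 8.61, 8.44 and 8.17 to 9.90, 9.59 and 9.61. CTPS1, a CTP synthase, fell by 0.93 (limma adjusted p = 0.0223). OAZ1, the antizyme that directs ornithine decarboxylase to degradation, fell by 0.92 (limma adjusted p = 0.015), from 14.84, 15.09 and 15.04 to 14.14, 14.06 and 14.02. In DLD1 the changes of SMOX, CTPS1 and OAZ1 were 0.87, -0.83 and -0.38, with the same signs. Without HCT 116 siControl replicate 2 the adjusted p was 0.0558 for SMOX, 0.0831 for CTPS1 and 0.0642 for OAZ1, and without siControl replicate 3 it was 0.0699, 0.0525 and 0.0554. SMOX also missed the threshold without siBRG1 replicate 1 (0.0566). CTPS1 and OAZ1 missed it without siBRG1 replicate 2 (0.0568 and 0.0513) and 3 (0.11 and 0.0583).

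Cytoplasmic ribosomal proteins, with 46 of 79 genes measured, had 0 calls in either line. Many of them read as high as NPM1 or higher, near the top of the scale, which limits what a change in them can show. RPL38 had siControl means of 16.72 in DLD1 and 17.11 in HCT 116, while others read lower, such as RPL27 at 12.63 and 12.11. Their median change was 0.11 in DLD1 and 0.15 in HCT 116, with 35 and 42 of 46 above 0. Between the control lines they also had 0 calls, with a median of -0.06. Between the same arms, 15 of 48 other small subunit factors were called higher in HCT 116 and 1 lower, and 9 of 47 other large subunit factors higher and 4 lower, where 13.6% of all genes were called higher and 14% lower.

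**Figure D5:**
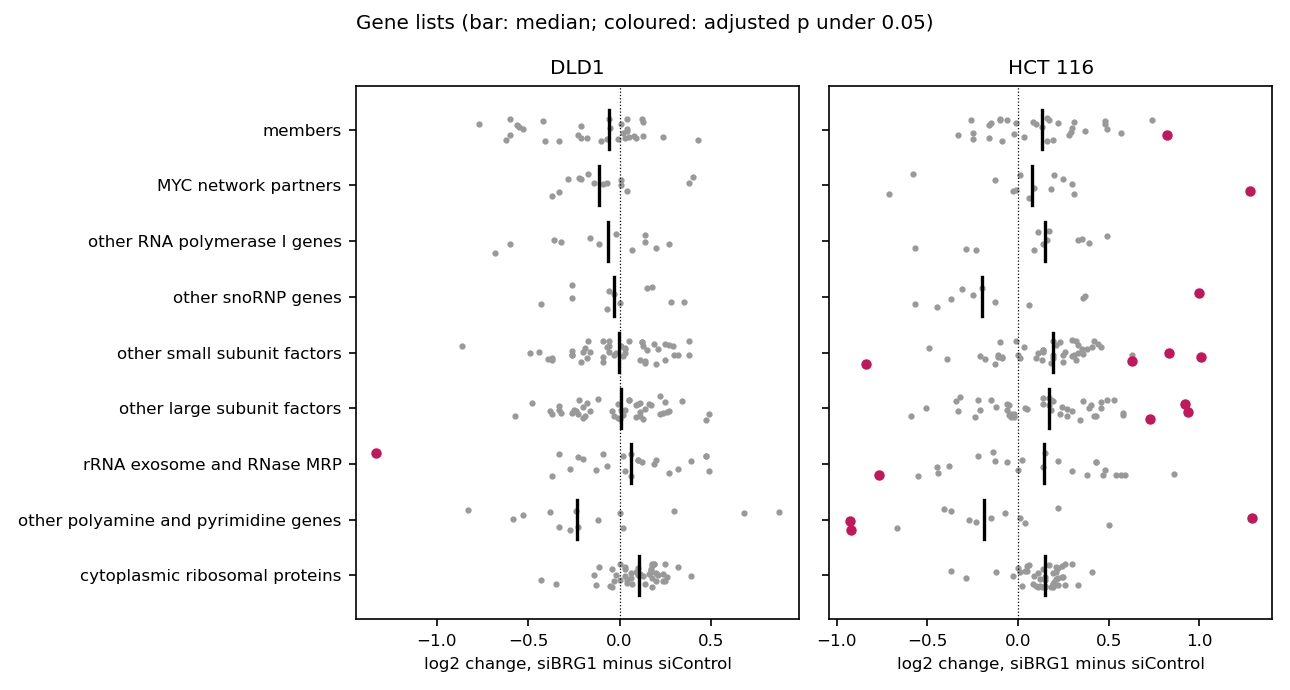
Log2 change after siBRG1 of every measured gene in the 40-gene set and in the 8 pathway lists, in DLD1 and in HCT 116; larger coloured points passed the test, bars mark medians, and each panel has its own axis range. The medians lie between -0.24 and 0.19, with FBXW7 and SMOX in HCT 116 and DIS3 in DLD1 furthest from 0 among the coloured points.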

How the data were processed

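The authors deposited log2 values. Per the submitters' processing notes, RMA and Affymetrix Power Tools were used, with no version or genome build given in the sources used here. The RMA method corrects background, gives all arrays 1 intensity distribution and merges the probes of a feature, so it removes shifts shared by all genes. Values ran from 2.16 to 18.05, and 94 to 112 per array exceeded 16, above what a 16-bit scanner can record, so a further, unnamed step lies behind the scale. Only 3 arrays per group limit the precision.

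Of 21448 features, 17709 had 1 gene symbol, 0 had several and 3739 had none; for 20 genes with several features the brightest was used, leaving 17687 genes. limma 3.58.1 in R 4.3.3 fitted 4 group means over the 12 arrays, with 8 residual and 6.66 prior degrees of freedom and Benjamini-Hochberg adjustment over all 17687 genes, at 0.05. The script was tested on simulated data with independent noise, so without shifts of whole arrays. A true change of 0.5 was called for 2% of 50 changed genes in DLD1 and for 6% in HCT 116. For a true change of 1 these shares were 42% and 50%, and for 2 they were 94% in both. A change of such a smaller size that did not pass the test is therefore not shown to be absent.

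The 40 genes, the pathway lists and the tests were chosen with earlier results of these data known. The text gives array values for MYC, the called genes of each role and otherwise the gene with the largest change, with others added after their values were seen, and at most 3 called genes per pathway list. Deviations of arrays with the same replicate number correlated at 0.49, 0.46 and 0.29 in DLD1. Each lay above the best correlation with another number, so the numbers pair the samples there by the data. In HCT 116 this held for numbers 1 and 2 but not for number 3. No label states a pairing. Alternatives were a replicate block, each line or the control arrays fitted alone, quantile normalisation, median centring, a filter on low genes, the mean of features, array weights, a trended and robust prior, and leaving out each array.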

Additional observations from a re-analysis of the deposited data

How the results depend on the processing

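Counts of 0 called genes in DLD1 and of 0 differences between the lines held under all alternatives that could be run, the replicate block included. In HCT 116 the count of 1 became 3 with the replicate block (RRP12, DIMT1 and NOP2), 2 with the trended and robust prior (MYC and DIMT1) and 0 with the line fitted alone, and leaving out 1 array gave 0 to 1. Whether HCT 116 replicate numbers pair the samples is unclear. Arrays of the same number correlated at 0.30, 0.15 and 0.03, against best correlations with another number of -0.05, 0.04 and 0.23. The average over both lines went from 1 to 4 with the replicate block (NOLC1, DIMT1, CAD and PPRC1), 3 with array weights, 2 with the trended and robust prior and 0 with median centring, and leaving out 1 array gave 0 to 1. The control line count of 8 ran from 5 to 11. The NOP58 change in DLD1, 0.04, was -0.02 under median centring and ran from -0.09 to 0.18 with 1 array left out. Median changes stayed within 0.162 of their values. Of 94 results for single genes, 63 kept their direction and side of the threshold throughout and 1 changed sign. Over all genes the HCT 116 calls were 499 higher and 731 lower, against 645 and 559 with median centring, and the DLD1 count of 35 was 98 with the replicate block, 4 fitted alone, 63 with the trended and robust prior and 128 with array weights; the cause was not tested. The replicate block cannot be applied to the control lines, and fitting lines alone gives no difference or average. RRP12 levels near the array medians, and levels of NPM1 and many ribosomal proteins near the top of the scale, limit what a change in them can show.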
